A study of Mus musculus with 6 samples.

Results

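The genes described here are 53 genes of DNA replication and nucleotide supply, chosen by name from the transcript table of the study and summed per gene symbol, out of 41254 symbols in all. All 53 were found, on 264 transcripts, none of which carried the status HIDATA that the authors' software gives to a locus it could not estimate. All 53 also passed the filter on low counts, which left 14653 genes. They fall into 9 genes of origin licensing and its control, 17 of the helicase and fork, 9 of the polymerases, 9 of the clamp, its loader and Okazaki fragment joining, 5 of nucleotide synthesis and 4 of chromatin assembly. The RNA came from DN3a thymocytes, T cell precursors without CD4 and CD8 that are rearranging their T cell receptor beta genes, taken from adult C57BL/6 mice with no treatment named. The libraries were 3 of wild type and 3 of the genotype Tg_Cd2_GATA3, here called transgenic, whose name pairs Cd2 with the transcription factor GATA3. The study's title sets the contrast as GATA3 overexpression. The sources used here do not say which Cd2 elements drive the transgene, how many founder lines were used or whether animals were pooled.

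Replication is prepared before S phase, when the origin recognition complex and Cdc6 load rings of Mcm2-7 onto DNA. Cyclin E with Cdk2 and the kinase Cdc7 with Dbf4 then turn the rings into working helicases with Cdc45 and GINS. Primase and polymerase alpha start each strand, polymerases delta and epsilon extend it on the sliding clamp PCNA, and RPA covers single strands. Ribonucleotide reductase, thymidylate synthase, thymidine kinase and dUTPase supply the nucleotides, and CAF-1 and ASF1 place histones on the new DNA. Many of these genes are known targets of E2F transcription factors and are transcribed from late G1 into S phase. In the thymus, DN3a cells divide little, and a burst of division follows once a beta chain has been selected.

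Each library held 39022281 to 46985605 fragments, of which the 53 genes took 0.851, 0.968 and 0.980% in the wild-type libraries (replicates 1, 2 and 3, the order kept for all values) and 0.755, 0.817 and 0.763% in the transgenic ones. Levels are given in CPM, fragments scaled to library size with TMM between libraries. Gata3 itself was at 49.1, 38.2 and 43.5 CPM in the wild-type libraries and 58.6, 53.6 and 61.6 CPM in the transgenic ones, higher in every transgenic library, with a log2 fold change of 0.41 and an edgeR adjusted p of 0.17. In the summed share of the 53 genes, though not in each gene, wild-type replicate 1 was the lowest wild-type library and lay above every transgenic one. That library and transgenic replicate 3 carried RNA of 4 Y-linked genes, 18522 and 16840 fragments against 16 to 26 in the others, so each group held 1 such library. All 12 markers of DN3a cells and the T lineage were detected. Within a group, the library with Y-linked RNA and those without it therefore cannot be repeats of the same cell sample. Beyond that, nothing in the labels says that the replicates came from separate animals. The p-values thus measure the spread between these samples, which may in part be technical. In RNA of bulk cells, fewer cells in S phase and less RNA per cell cannot be told apart.

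All 53 genes lay lower in the transgenic group, with log2 fold changes from -0.56 for Mcm10, which activates the assembled helicase, to -0.11 for Orc2, a subunit of the origin recognition complex. The median was -0.28, a level 1.22-fold higher in wild type, against a median of 0.0011 over all genes tested, of which 49.8% lay below 0. None of the 53 passed edgeR's quasi-likelihood test after Benjamini-Hochberg adjustment over all genes, with adjusted p from 0.135 upward, where 0.0136% of all genes passed in either direction, namely P2ry1 and Zfp36l2, both higher. The 53 genes were chosen with earlier results of these data known, so the shares set beside all genes describe the list and do not test it. At an unadjusted p under 0.05, 44 of the 53 were lower, against 7.7% of all genes, and none was higher. In 37 of the 53 every transgenic library lay below every wild-type library, as in 10.1% of all genes. DESeq2 called 28 of the 53 lower, where it called 3.47% of 9511 genes lower.

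The number of calls differed between settings. Without wild-type replicate 1 edgeR called 30 of the 53 lower, beside 2.32% of all genes, and without any other single library it called 0. With a covariate for Y-linked RNA, edgeR called 19 lower (1.4% of all genes), and without both libraries that carry it 17 (1.32%). With no filter on low counts it called 11 (0.485%). Wild-type replicate 1 was the lowest of the wild-type libraries for 47 of the 53 genes and the highest for none. Of the 16 genes whose groups overlapped, 14 overlapped through that library alone, and the others were Rfc3 and Pold2. Within the 4 libraries without Y-linked RNA all 53 genes were lower in the transgenic group, with a median log2 ratio of -0.31. Between the 2 libraries with it, 1 of each genotype and so with no replicate, 50 of the 53 were lower in the transgenic library, with a median of -0.18, the exceptions being Orc2, Ccne2 and Gins4. The lowest library of all 6 was transgenic replicate 3 for 28 genes, transgenic replicate 1 for 23, transgenic replicate 2 for Dscc1 and wild-type replicate 1 for Gins4.

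**Figure D1:**
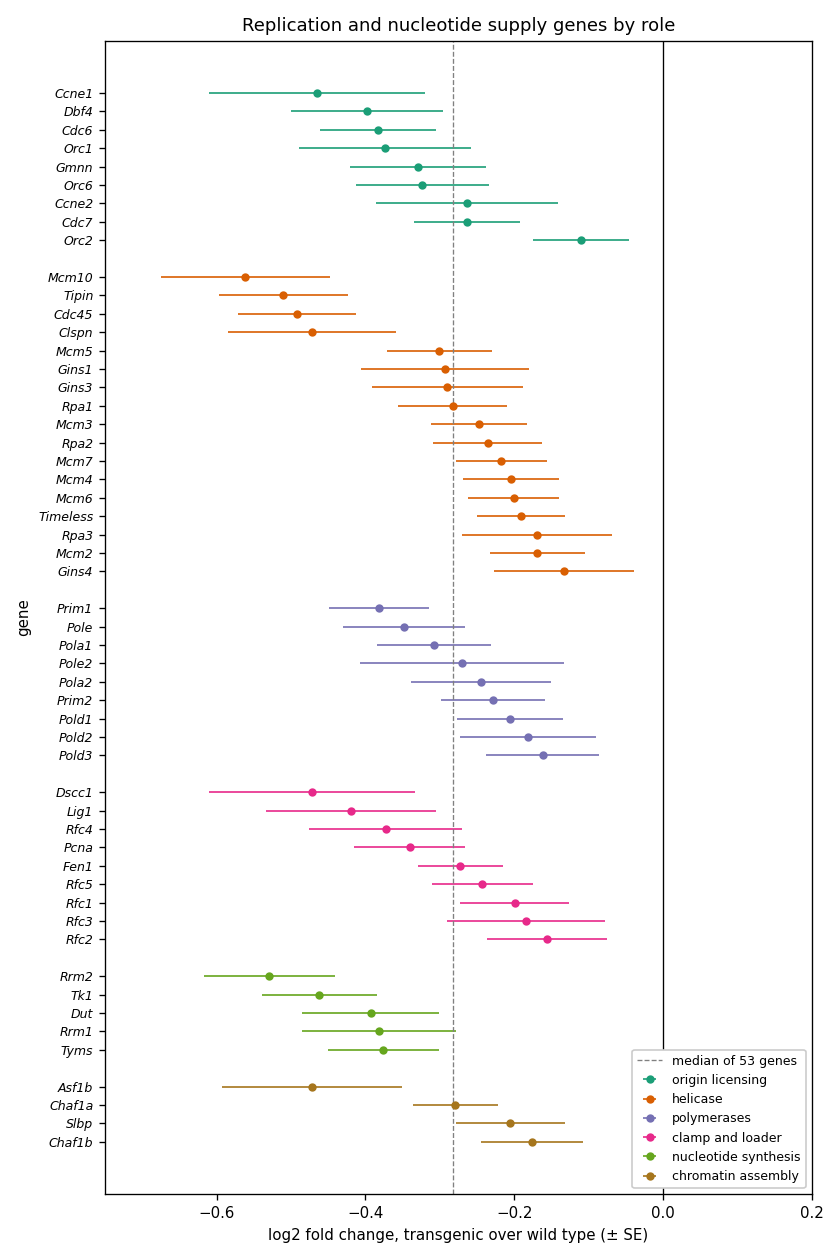
Log2 fold change, transgenic over wild type (x axis), with its standard error for each of the 53 genes (y axis), coloured by role, with the median of the 53 as a dashed line. Every point lies left of 0, between -0.56 for Mcm10 and -0.11 for Orc2, and the 5 nucleotide synthesis genes all lie left of the median of -0.28.

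**Figure D2:**
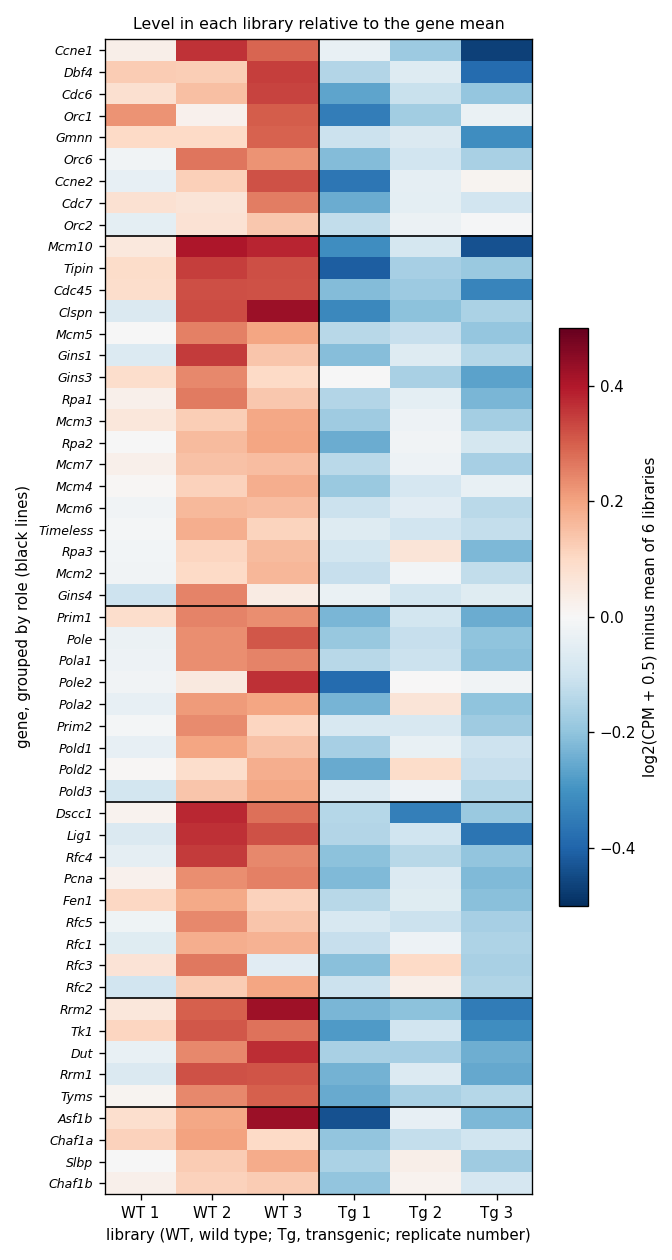
Level of each gene (y axis, grouped by role) in each library (x axis) as log2(CPM + 0.5) minus the gene's mean over the 6 libraries (colour, red high and blue low). Wild-type replicates 2 and 3 are red for most genes, wild-type replicate 1 is near white, and the transgenic libraries are mostly blue, with transgenic replicate 2 the palest.

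Markers of other cell types and of handling differed between the groups in part. Of 10 genes of beta-selected and later thymocytes, all detected, 8 lay below 0, and their summed level per total fragments was 345 to 413 CPM in the wild-type and 386 to 446 CPM in the transgenic libraries. Cd8a was at 6.90, 6.82 and 10.8 CPM in the wild-type libraries and 5.53, 2.78 and 1.37 CPM in the transgenic ones, and Cd8b1 at 7.21, 10.7 and 8.95 CPM in the wild-type libraries and 5.73, 3.07 and 3.30 CPM in the transgenic ones, all of the transgenic values being lower. Cd4, Cd5 and Cd28 were also lower in every transgenic library, with log2 fold changes (here and below ± the SE) of -0.89 ± 0.22, -0.25 ± 0.13 and -0.34 ± 0.075. In the other direction Ccr9 was at 149, 113 and 118 CPM in the wild-type libraries and 150.5, 154 and 224 CPM in the transgenic ones, higher in every transgenic library, and Cd27 had a log2 value of 0.16 ± 0.075 with overlapping groups. Within the DN3a and T lineage list, 7 of 12 genes were above 0. Il2ra was lower in every transgenic library, at 367, 379 and 397 CPM in the wild-type libraries and 346, 342 and 328 CPM in the transgenic ones, while Notch1 and Bcl11b were higher in every one, with log2 fold changes of 0.19 ± 0.058 and 0.26 ± 0.083, and groups of the other 9 overlapped. None of these genes passed edgeR's test, and DESeq2 called Cd28 lower and Notch1 and Bcl11b higher. Each of the 12 immediate early and stress genes tested was above 0, and the list summed to 561 to 668 CPM in the wild-type and 780.3 to 1216 CPM in the transgenic libraries, which did not overlap. Their part in the result was not tested. Summed markers overlapped between groups for B cells (42.3 to 50.7 and 46.0 to 55.7 CPM), myeloid cells (17.6 to 22.7 and 21.9 to 25.4 CPM), NK and innate lymphoid cells (240.0 to 307 and 203 to 293 CPM), erythroid cells (1.26 to 4.79 and 3.31 to 7.61 CPM) and thymic stroma (184 to 209 and 198 to 228 CPM). Pax5 of the B cell list, S100a8 of the myeloid, Eomes and Ncr1 of the NK, Pdgfra of the stromal and Atf3 of the immediate early list were listed at 0 in every library.

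The choice of genes by name used no sequence, and their promoters are described here. RefSeq windows of 300 bases (250 before the start site and 50 after it, GRCm38.p6) were found for 43 of the 53 genes, 50 windows in all. Entries were missing for Ccne2, Rfc2, Pole, Prim2, Dscc1, Gmnn, Mcm4, Gins1, Tipin and Gins4. E2F words of 8 letters (TTTCCCGC, TTTCGCGC, TTTGCCGC or TTTGGCGC, either strand) were in 14 of the 50 windows, 28.0%, against 3.85% of 12591 windows of tested genes and 2.26% of all 32851. The same words without their first T, a set of 7 letters chosen after the sequences were seen and contained in the 8-letter words, were in 28 windows, 56.0%, against 16.2% and 9.57%. The windows of the 53 genes had a median G+C content of 61.3%, and those of tested genes 60.3%. Between the quartiles of G+C content of the member windows, 52.5 and 65.7%, the 8-letter words were in 13 of 26 member windows and in 4.52% of 6235 windows of tested genes.

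The CCAAT box was in 28 of the 50 windows on either strand, 56.0%, against 37.8% of the windows of tested genes and 37.4% of all windows. GATA words (AGATAA, with AGATAG, besides TGATAA as well as TGATAG, either strand) were in 7 windows, 14.0%, against 19.1% and 29.8%. Windows of 17 genes of G2 and mitosis had another make-up. There the word TTTGAA, called CHR and bound by the complex that controls mitotic genes, was in 12 windows, 70.6%, the CCAAT box in 88.2% and the 8-letter E2F words in 5.88%. In the replication genes the CHR word was in 9 windows, 18.0%, against 11.99% of tested genes and 17.9% of all windows. The 14 genes with an 8-letter E2F word had a median log2 fold change of -0.28, and so did the 29 matched genes without it. These matches describe letters in a window and show no binding.

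**Figure D3:**
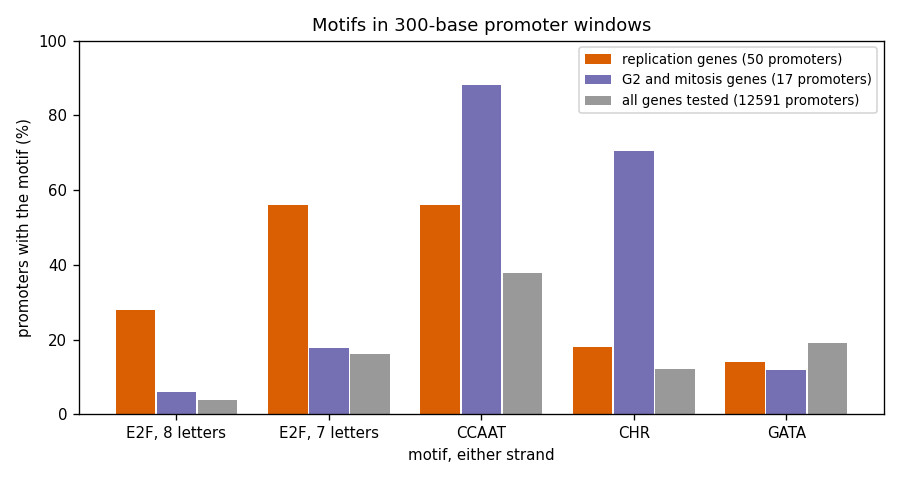
Percent of 300-base promoter windows (y axis) that hold each motif on either strand (x axis), for the replication genes, genes of G2 and mitosis, and all genes tested. The 8-letter E2F words stand at 28.0% in the replication genes and 5.88% in the mitotic ones, and the CHR word at 18.0% and 70.6%.

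These 6 windows are shown because they belong to the genes with the smallest p among helicase, polymerase, clamp and nucleotide genes, Cdc45, Prim1, Fen1 (the first of its pair of windows) and Rrm2, and, chosen after the words were found, to 2 subunits of the helicase ring with paired E2F words, Mcm5 and Mcm6. They lie at chr16:18811923-18812222, minus strand (Cdc45), chr10:128014965-128015264, plus strand (Prim1), chr19:10203872-10204171, minus strand (Fen1), chr12:24708004-24708303, plus strand (Rrm2), chr8:75109259-75109558, plus strand (Mcm5) and chr1:128359656-128359955, minus strand (Mcm6). Each is read 5′ to 3′ on the gene's strand, and capitals mark the E2F words of 7 or 8 letters and the CCAAT box, on either strand. The Mcm5 and Mcm6 windows hold overlapping 8-letter words read on opposite strands. The Cdc45 window holds the CCAAT box and no E2F word, and also GATA and CHR words, which are not in capitals. The Fen1 window that is not shown holds no E2F word of either length and no CCAAT box, and holds GATA and CHR words.
Cdc45: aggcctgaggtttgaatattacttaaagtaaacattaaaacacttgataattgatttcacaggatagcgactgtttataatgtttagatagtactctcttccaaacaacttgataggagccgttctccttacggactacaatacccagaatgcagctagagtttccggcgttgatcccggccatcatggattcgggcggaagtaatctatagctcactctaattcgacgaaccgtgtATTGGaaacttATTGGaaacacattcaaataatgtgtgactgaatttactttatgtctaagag
Prim1: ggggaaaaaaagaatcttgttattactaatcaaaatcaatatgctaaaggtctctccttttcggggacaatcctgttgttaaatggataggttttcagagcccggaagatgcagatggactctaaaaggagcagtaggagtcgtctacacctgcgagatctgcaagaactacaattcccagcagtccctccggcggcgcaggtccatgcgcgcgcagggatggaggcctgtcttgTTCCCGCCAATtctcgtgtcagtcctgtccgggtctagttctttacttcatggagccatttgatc
Fen1: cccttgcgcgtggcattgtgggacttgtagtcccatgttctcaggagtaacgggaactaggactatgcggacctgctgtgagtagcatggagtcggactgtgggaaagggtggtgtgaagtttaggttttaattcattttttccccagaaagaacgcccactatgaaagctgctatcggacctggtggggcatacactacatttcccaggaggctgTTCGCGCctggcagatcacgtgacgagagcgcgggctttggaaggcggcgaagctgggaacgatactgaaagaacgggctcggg
Rrm2: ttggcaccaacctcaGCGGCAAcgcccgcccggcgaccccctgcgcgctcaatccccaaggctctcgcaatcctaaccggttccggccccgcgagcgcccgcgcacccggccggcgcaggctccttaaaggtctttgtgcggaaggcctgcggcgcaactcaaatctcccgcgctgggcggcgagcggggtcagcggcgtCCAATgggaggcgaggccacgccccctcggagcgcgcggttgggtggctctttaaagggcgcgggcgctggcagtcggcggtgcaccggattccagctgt
Mcm5: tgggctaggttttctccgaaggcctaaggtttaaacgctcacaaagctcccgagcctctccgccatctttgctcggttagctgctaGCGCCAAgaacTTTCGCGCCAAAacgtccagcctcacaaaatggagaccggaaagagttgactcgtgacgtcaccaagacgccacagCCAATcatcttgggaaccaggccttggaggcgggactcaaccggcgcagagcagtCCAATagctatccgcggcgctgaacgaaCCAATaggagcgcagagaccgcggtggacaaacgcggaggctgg
Mcm6: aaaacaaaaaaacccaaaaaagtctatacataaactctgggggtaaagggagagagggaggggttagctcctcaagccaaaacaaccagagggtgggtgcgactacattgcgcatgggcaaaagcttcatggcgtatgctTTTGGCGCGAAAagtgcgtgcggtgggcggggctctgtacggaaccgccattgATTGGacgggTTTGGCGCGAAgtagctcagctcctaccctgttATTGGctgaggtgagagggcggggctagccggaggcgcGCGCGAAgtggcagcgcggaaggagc

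Nucleotide synthesis was the role with the lowest median, -0.39, and all 5 of its genes were called lower by DESeq2 and also by edgeR without wild-type replicate 1 or with Y-linked RNA as a covariate. Over all genes these settings called 3.47, 2.32 and 1.4% lower. Rrm2, the small subunit of ribonucleotide reductase (ENSMUSG00000020649, chromosome 12, 24708241 to 24714146, plus strand, mm10), gave 179, 212 and 230.4 CPM in wild-type libraries 1 to 3 and 146, 149 and 135 CPM in transgenic libraries 1 to 3. All transgenic values lay below all wild-type values. The mean was 207 ± 26.1 CPM in wild type against 143 ± 7.56 CPM in transgenic cells (SD, n = 3 each), a log2 fold change of -0.53 ± 0.088 with an edgeR adjusted p of 0.135. With DESeq2 the adjusted p was 3.79e-06, and over all 15 alternatives it ran from 3.79e-06 to 0.492. The enzyme's large subunit, Rrm1, stood at 414, 544 and 541 CPM in the wild-type libraries and 369.8, 415 and 365 CPM in the transgenic ones. Transgenic replicate 2 lay just above wild-type replicate 1, so the groups overlapped, and its log2 fold change was -0.38 ± 0.10.

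Tk1, the cytosolic thymidine kinase that salvages thymidine (ENSMUSG00000025574, chromosome 11, 117815526 to 117826092, minus strand), stood at 99.5, 115 and 112 CPM in the wild-type libraries and 75.8, 86.4 and 74.3 CPM in the transgenic ones. Its groups were apart, with means of 109 ± 8.01 CPM in wild type against 78.8 ± 6.62 CPM in transgenic cells (SD, n = 3 each), a log2 fold change of -0.46 ± 0.078 and an edgeR adjusted p of 0.135 (DESeq2 adjusted p = 5.45e-05, range over the alternatives 5.45e-05 to 0.492). Tyms, thymidylate synthase, which makes thymidylate anew, was at 139, 162 and 169 CPM in the wild-type libraries and 115, 122 and 124 CPM in the transgenic ones. Dut, the dUTPase that clears dUTP and yields the substrate of Tyms, was at 219, 266 and 291 CPM in the wild-type libraries and 201, 200.3 and 189.9 CPM in the transgenic ones. In both genes the groups were apart, and the log2 fold changes were -0.38 ± 0.074 and -0.39 ± 0.092. For Rrm2, Tyms and Dut wild-type replicate 3 was the highest library, and for Rrm1 and Tk1 wild-type replicate 2.

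Among the 17 helicase and fork genes 9 were called lower by DESeq2 and 7 with the covariate for Y-linked RNA, and the median log2 fold change was -0.25. The matching shares of all genes tested, transgenic lower, were 3.47 and 1.4%. Cdc45, the cofactor of the active helicase (ENSMUSG00000000028, chromosome 16, 18780447 to 18811987, minus strand), was at 85.0, 100.2 and 99.9 CPM in the wild-type libraries and 68.8, 70.4 and 63.5 CPM in the transgenic ones. Wild-type replicate 1 lay nearest to the transgenic libraries, and the groups did not overlap. The means were 95.04 ± 8.68 CPM in wild type against 67.6 ± 3.59 CPM in transgenic cells (SD, n = 3 each), a log2 fold change of -0.49 ± 0.079 and an edgeR adjusted p of 0.135 (DESeq2 adjusted p = 2.60e-05, range over the alternatives 2.60e-05 to 0.492). Tipin, the partner of Timeless in protecting the fork (ENSMUSG00000032397, chromosome 9, 64281581 to 64305424, plus strand), was at 103, 122.8 and 121 CPM in the wild-type libraries and 72.5, 86.1 and 84.8 CPM in the transgenic ones, a log2 fold change of -0.51 ± 0.087. Every transgenic library of Tipin lay below every wild-type one, and its edgeR adjusted p was 0.136. Mcm10 was at 77.6, 99.1 and 97.5 CPM in the wild-type libraries and 60.3, 70.3 and 55.1 CPM in the transgenic ones, the largest difference among the 53 genes at -0.56 ± 0.11. Clspn, the claspin adaptor that passes fork stress to the checkpoint kinase, had a log2 fold change of -0.47 ± 0.11.

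The ring itself lay closer to 0. The 6 subunits Mcm2 to Mcm7 had log2 fold changes from -0.30 for Mcm5 to -0.17 for Mcm2, with a median of -0.21. In 5 of the 6 every transgenic library lay below every wild-type one, as in 10.1% of all genes. DESeq2 called Mcm3, Mcm5, Mcm6 and Mcm7 lower, where it called 3.47% of all genes it tested lower. The GINS genes, partners of the ring in the active helicase, had values of -0.29 ± 0.11 for Gins1, -0.29 ± 0.10 for Gins3 and -0.13 ± 0.094 for Gins4. Gins4 had the largest p of the group and stood at 52.8, 67.4 and 58.3 CPM in the wild-type libraries and 55.3, 53.1 and 54.2 CPM in the transgenic ones. All of its transgenic values lay above wild-type replicate 1, so the groups overlapped. The single-strand binding genes Rpa1, Rpa2 and Rpa3 had log2 fold changes of -0.28 ± 0.073, -0.24 ± 0.073 and -0.17 ± 0.10, and Timeless of -0.19 ± 0.059.

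Of the 9 genes of origin licensing and its control, 7 had groups that did not overlap, 5 were called lower by DESeq2, and the median was -0.33. Over all genes the groups lay apart, with transgenic lower, in 10.1%, and DESeq2 called 3.47% of those it tested lower. Cdc6, the ATPase that helps load the ring, stood at 89.9, 94.4 and 108 CPM in the wild-type libraries and 70.7, 78.8 and 74.4 CPM in the transgenic ones. Dbf4, the activating subunit of the Cdc7 kinase, was at 62.5, 62.4 and 72.8 CPM in the wild-type libraries and 51.6, 54.7 and 43.7 CPM in the transgenic ones, and Cdc7 itself at 122, 121 and 138 CPM in the wild-type libraries and 97.6, 112 and 108 CPM in the transgenic ones. In these 3 genes the groups were apart, and the log2 fold changes were -0.38 ± 0.078, -0.40 ± 0.10 and -0.26 ± 0.071, with edgeR adjusted p of 0.159, 0.177 and 0.187. The cyclin genes Ccne1 and Ccne2, which partner Cdk2 at S phase entry, had values of -0.47 ± 0.14 and -0.26 ± 0.12, and Gmnn, geminin, which restrains relicensing by binding Cdt1, of -0.33 ± 0.092. The origin recognition genes were uneven, with Orc1 at -0.37 ± 0.12, Orc6 at -0.32 ± 0.09 and Orc2 at -0.11 ± 0.065. Orc2 stood at 91.8, 99.9 and 104 CPM in the wild-type libraries and 87.0, 92.9 and 94.5 CPM in the transgenic ones, and transgenic replicates 2 and 3 both lay above wild-type replicate 1. Exons of Nif3l1 on the opposite strand overlap 29.8% of the exon bases of Orc2, and the sources used here do not say whether counting used strand.

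Of the 9 polymerase genes 4 had groups that did not overlap and 3 were called lower by DESeq2, namely Prim1, Pole and Pola1, with a median of -0.24 for all 9. The shares over all genes, transgenic lower, were 10.1% without overlap and 3.47% by DESeq2. Prim1, the catalytic subunit of primase (ENSMUSG00000025395, chromosome 10, 128015168 to 128030037, plus strand), was at 99.5, 111 and 110.0 CPM in the wild-type libraries and 79.7, 87.6 and 78.6 CPM in the transgenic ones. Its groups were apart, and its log2 fold change was -0.38 ± 0.067, with an edgeR adjusted p of 0.148. Pole, the catalytic subunit of the leading-strand polymerase epsilon, stood at 145, 174 and 184 CPM in the wild-type libraries and 129.7, 137 and 129 CPM in the transgenic ones. Pola1, the catalytic subunit of polymerase alpha, stood at 224, 268 and 271 CPM in the wild-type libraries and 207, 211 and 197 CPM in the transgenic ones. Both had groups that did not overlap, and log2 fold changes of -0.35 ± 0.082 and -0.31 ± 0.077. The accessory subunits Pold3, Pold2, Pola2 and Pole2 and the catalytic Pold1 had values from -0.16 to -0.27, and in all 5 the groups overlapped. Pole2 had the largest p, at 29.2, 30.6 and 38.2 CPM in the wild-type libraries and 22.5, 29.6 and 29.1 CPM in the transgenic ones, with a wide spread set by wild-type replicate 3 and transgenic replicate 1. Prim2, the large subunit of primase, had a log2 fold change of -0.23 ± 0.07.

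Pcna, the sliding clamp on which the polymerases run (ENSMUSG00000027342, chromosome 2, 132249162 to 132253314, minus strand), was at 510.5, 590.1 and 598 CPM in the wild-type libraries and 431, 479 and 431 CPM in the transgenic ones. Its groups were apart, with means of 566 ± 48.5 CPM in wild type against 447 ± 27.6 CPM in transgenic cells (SD, n = 3 each), a log2 fold change of -0.34 ± 0.075 and an edgeR adjusted p of 0.159 (DESeq2 adjusted p = 0.00051, range over the alternatives 0.00051 to 0.499). Lig1, the ligase that seals Okazaki fragments, was at 91.8, 125 and 120.3 CPM in the wild-type libraries and 87.1, 90.03 and 74.7 CPM in the transgenic ones, with wild-type replicate 1 close to the transgenic libraries and a log2 fold change of -0.42 ± 0.11. Fen1, the flap nuclease that trims those fragments, had a log2 fold change of -0.27 ± 0.057 and stood at 202, 215 and 203 CPM in the wild-type libraries and 171, 180.0 and 162 CPM in the transgenic ones. Its groups were apart, but exons of Gm10143 and Tmem258 on the opposite strand cover 84.2% of its exon bases, so its count is uncertain in part. Opposite-strand exons also overlap over 10% of the exon bases of Ccne2, Orc1, Rfc2, Rfc4 and Rfc5. Of the clamp loader, Rfc4 and Rfc5 had log2 fold changes of -0.37 ± 0.10 and -0.24 ± 0.068 with no overlap of groups, while Rfc1, Rfc2 and Rfc3 had values of -0.20 ± 0.073, -0.16 ± 0.08 and -0.18 ± 0.11 with overlap. Rfc3 had the largest p of the 9, at 71.6, 82.0 and 65.6 CPM in the wild-type libraries and 58.9, 73.1 and 60.98 CPM in the transgenic ones, where wild-type replicate 3 was its lowest wild-type library. Dscc1, part of an alternative loader that acts in cohesion, was the rarest member at 13.6 CPM in wild type and had a value of -0.47 ± 0.14.

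The 4 chromatin assembly genes had a median of -0.24, and all 4 were lower at an unadjusted p under 0.05, as were 7.7% of all genes. Chaf1a, the large subunit of the histone chaperone CAF-1, was at 103, 109 and 102 CPM in the wild-type libraries and 82.8, 87.5 and 88.8 CPM in the transgenic ones. Asf1b, a chaperone for H3 and H4, was at 49.0, 52.8 and 62.2 CPM in the wild-type libraries and 34.0, 44.8 and 39.4 CPM in the transgenic ones. DESeq2 called both lower, as it did 3.47% of all genes it tested, and their log2 fold changes were -0.28 ± 0.057 and -0.47 ± 0.12. Exons of Ubxn6 on the opposite strand overlap 52.5% of the exon bases of Chaf1a. Chaf1b, the middle subunit of CAF-1, stood at 88.7, 94.3 and 95.2 CPM in the wild-type libraries and 75.9, 88.2 and 82.1 CPM in the transgenic ones, and Slbp, which binds the stem-loop of histone mRNA, at 201, 219.9 and 229 CPM in the wild-type libraries and 181, 206 and 178 CPM in the transgenic ones. For Chaf1b the groups were apart by less than 1 CPM, and for Slbp transgenic replicate 2 lay above wild-type replicate 1, with log2 fold changes of -0.18 ± 0.068 and -0.21 ± 0.073.

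**Figure D4:**
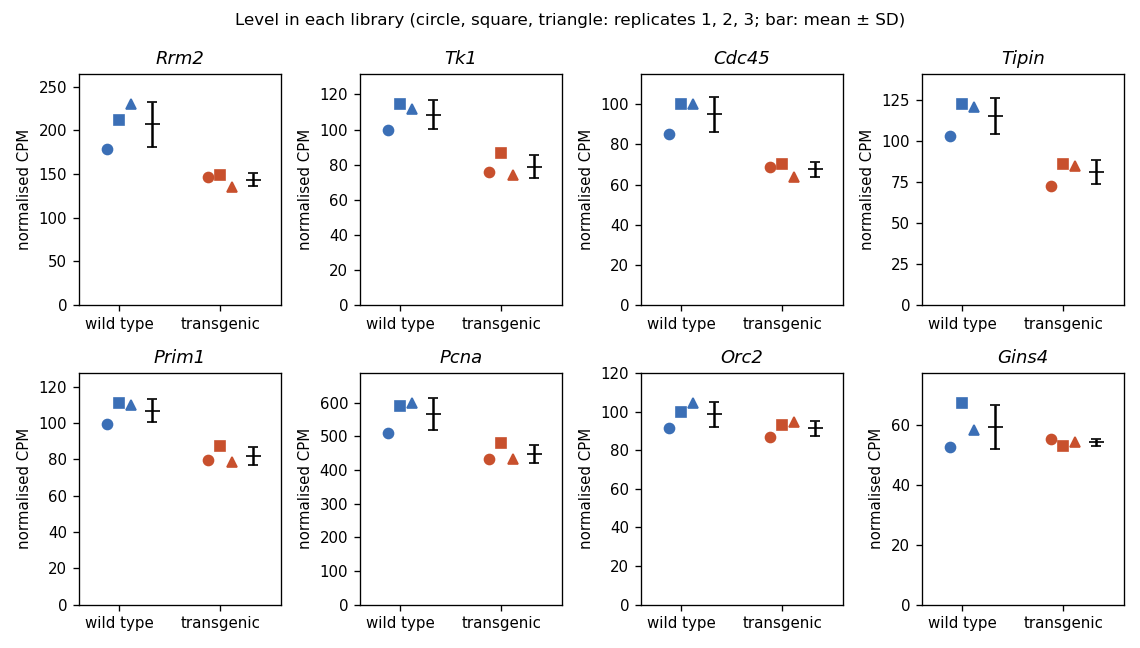
Normalised CPM (y axis, from 0) of 8 genes in each library by group (x axis; circle, square and triangle for replicates 1, 2 and 3), with the mean and SD of 3 libraries beside them. Rrm2 spans 179 to 230 CPM among the wild-type and 135 to 149 CPM among the transgenic libraries, while the groups overlap for Orc2 and Gins4.

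Levels per transcript length, in FPKM as the authors deposited it and summed over a gene's transcripts, ordered the genes within each machine. Pcna had the highest of the 53 at 440.4 ± 38.3 FPKM in wild type and 354 ± 27.4 in transgenic cells (SD, n = 3 each), followed by Mcm6 at 285 ± 21.4 and 252 ± 7.96 and Dut at 257 ± 39.7 and 195 ± 5.33. The wild-type levels of Mcm6 and Dut differed by more than the SD of Mcm6 and less than that of Dut. Although the ring holds its subunits in equal number, their mRNA was unequal in wild type, with Mcm7 at 219 ± 9.89, Mcm5 at 133 ± 13.2, Mcm3 at 125 ± 9.82, Mcm2 at 89.3 ± 8.10 and Mcm4 at 74.9 ± 5.92 FPKM. Mcm5 and Mcm3 lay within their SD of each other, while Mcm6, Mcm7 and this pair were apart. The transgenic order was the same, with Mcm7 at 196 ± 9.60, Mcm5 at 109 ± 1.14, Mcm3 at 107 ± 11.1, Mcm2 at 79.3 ± 1.93 and Mcm4 at 65.96 ± 4.87 FPKM.

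Among the polymerases Pold1, the catalytic subunit of polymerase delta, stood at 107 ± 11.2 FPKM in wild type, above its accessory partners Pold2 at 56.4 ± 8.58 and Pold3 at 40.1 ± 4.85. Pole stood at 22.4 ± 2.01 and its partner Pole2 at 20.4 ± 2.94 FPKM, a difference within the SD of Pole2. The lowest levels were those of Dscc1 at 8.60 ± 0.927, Ccne1 at 9.29 ± 1.78, Orc1 at 9.59 ± 0.913 and Gins3 at 11.3 ± 0.945 FPKM in wild type. Dscc1, Ccne1 and Orc1 lay within an SD of their neighbours in this order, and Gins3 above them. Rrm1 and Rrm2, which form 1 enzyme, stood at 124 ± 20.4 and 109 ± 15.5 FPKM in wild type and at 97.2 ± 10.1 and 77.0 ± 4.24 in transgenic cells.

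**Figure D5:**
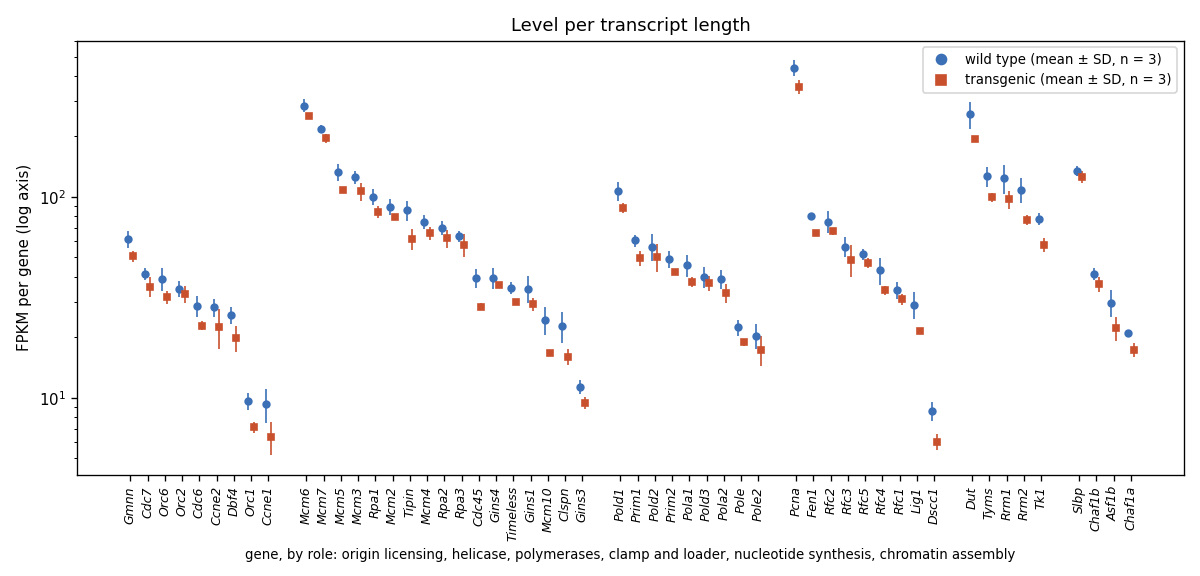
FPKM per gene (y axis, log scale) for the 53 genes ordered within each role by their wild-type level (x axis), as mean and SD of 3 libraries per group. Pcna is highest at 440 FPKM in wild type and Dscc1 lowest at 8.60, and the transgenic mean lies below the wild-type mean for each gene.

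The authors' deposited table tests transcripts and not genes. Of 242 tested transcripts of the 53 genes it marked 2 as significant, both lower, where 0.178% of 44416 tested transcripts were marked significant and lower. In the authors' deposited table the Rrm2 transcript of 2193 bases stood at -0.51 on the log2 scale with q = 0.0218, and the only Tipin transcript, of 1211 bases, at -0.48 with q = 0.0218. Of the 242, 169 were lower and 73 higher in the authors' deposited table, where 46.4% of all tested transcripts were lower. The unadjusted p in the authors' deposited table was under 0.05 for 28 of the 242, all 28 of them lower, against 1.45% of all tested transcripts lower and 1.26% higher.

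A protein-coding transcript carried the largest share of FPKM in 50 of the 53 genes, and in 29 that transcript held over 80%. The exceptions were Lig1, with a processed transcript at 38.1% (7.04 to 57.2% over the libraries), Tyms, with a nonsense-mediated decay transcript of 797 bases at 55.3%, and Rfc1, whose leading transcript had no match in GENCODE M21. Of 27 members with at least 10 fragments in every library on transcripts annotated as retained introns, 5 had a share of such fragments that was higher in every transgenic library and none a lower one, beside 10.4% and 2.71% of 3252 genes. The median difference in share, transgenic minus wild type, was 0.22 points for the 27 members and 0.43 points for the 3252 genes. Named after their values were seen, Tk1 had 16.0, 12.8 and 11.5% of its fragments on such transcripts in the wild-type libraries and 19.9, 21.2 and 21.6% in the transgenic ones. Slbp had 5.61, 5.31 and 4.36% and 8.86, 8.43 and 8.71%. The other 3 were Pold1, Rfc5 and Rrm2, where the share of Rrm2 was 1.25 ± 0.0467% in wild type and 1.45 ± 0.0367% in transgenic cells (SD, n = 3 each). The division of fragments among transcripts of a gene is an estimate by the authors' software.

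Other genes of the same pathways also lay mostly below 0. Over all genes, 49.8% lay below 0, 7.7% were lower at an unadjusted p under 0.05, and DESeq2 called 3.47% lower. Of 33 further replication genes tested, 27 lay below 0 with a median of -0.18, and 19 were lower at that p and none higher. Among these 33 edgeR called 0 and DESeq2 called 7 lower. The 3 with the smallest p were 2810417H13Rik (Pclaf), a PCNA-binding protein, at 226, 274 and 275 CPM in the wild-type libraries and 192, 197 and 155 CPM in the transgenic ones, Recql4, a helicase of replication initiation, with a log2 fold change of -0.38 ± 0.094, and Nasp, a histone chaperone, with -0.32 ± 0.081. Above 0, the 3 with the smallest p were Pold4 at 0.20 ± 0.16, Cdc25a, the phosphatase that activates Cdk2, at 0.046 ± 0.052 and Orc4 at 0.061 ± 0.078, and none of these passed. Uhrf1, which brings Dnmt1 to new DNA and was named after its values were seen, stood at 1109, 1118 and 1133 CPM in the wild-type libraries and 1061, 1137 and 1162 CPM in the transgenic ones, groups that overlapped, while Dnmt1 had a log2 fold change of -0.25 ± 0.069. Cdt1, the licensing factor, and Gins2 lie at a locus that could not be estimated in wild type and were not tested.

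Of 34 further genes of nucleotide and one-carbon metabolism, 30 lay below 0 with a median of -0.18, 19 were lower at an unadjusted p under 0.05, edgeR called 0 and DESeq2 called 8 lower. The shares over all genes were 49.8% below 0, 7.7% lower at that p and 3.47% called lower by DESeq2. Umps, which completes pyrimidine synthesis, stood at 151, 161 and 149 CPM in the wild-type libraries and 124, 131 and 128 CPM in the transgenic ones. Mthfd2, a mitochondrial one-carbon enzyme, had a log2 fold change of -0.43 ± 0.10 and Cad, which begins pyrimidine synthesis, of -0.30 ± 0.064. The 3 with the smallest p above 0 were Samhd1, which degrades dNTPs, at 0.35 ± 0.26, Ctps2 at 0.089 ± 0.072 and Tk2, the mitochondrial thymidine kinase, at 0.04 ± 0.10, and none of these passed. Rrm2b, the ribonucleotide reductase subunit used outside S phase, was at 19.5, 16.8 and 18.7 CPM in the wild-type libraries and 18.6, 17.0 and 19.7 CPM in the transgenic ones, and its groups overlapped, with a log2 fold change of 0.0096 ± 0.11 against -0.53 ± 0.088 for Rrm2, a difference between genes that was not tested.

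Genes of G2 and mitosis lay further below 0 than the replication genes, with a median of -0.48 over 20 genes against -0.28, a contrast of medians with no test. DESeq2 called 19 of the 20 lower and edgeR called 0, with 19 at an unadjusted p under 0.05. Over all genes DESeq2 called 3.47% lower, and 7.7% were lower at that p. In single libraries the median of the 53 genes, relative to each gene's mean, was -0.00029, 0.21 and 0.20 in the wild-type libraries and -0.18, -0.071 and -0.18 in the transgenic ones on the log2(CPM + 0.5) scale. For G2 and mitosis it was -0.031, 0.38, 0.37, -0.19, -0.11 and -0.42 in the same order. Both lists put the 6 libraries in nearly the same order, with wild-type replicate 1 between the other wild-type libraries and the transgenic ones. Transgenic replicates 1 and 3 were close for the replication genes and apart for the mitotic ones.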

How the data were processed

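Total RNA was depleted of ribosomal RNA before library preparation, per the labels' protocols. TopHat2 and Cuffdiff (versions not given) and the mm10 build are named in the submitters' processing notes, and the sources used here give neither annotation nor strand setting. The authors deposited estimated counts of fragments and FPKM for 100144 transcripts. They also deposited externally scaled fragments (a scaled signal, not used here), and a comparison per transcript holding each group's FPKM, the log2 ratio, p-value and q-value and a test score. Other per-sample columns numbered 0. The 466 transcripts with status HIDATA were left out, as in earlier work on this table. Expected counts were summed per symbol and rounded. edgeR 4.0.16 (R 4.3.3) fitted all 6 libraries with no covariate, TMM scaling and filterByExpr (minimum count 10, minimum total 15), two-sided, with Benjamini-Hochberg adjustment over 14653 genes and a threshold of 0.05. CPM are after TMM scaling, and standard errors derive from the F statistic. The common biological coefficient of variation was 19.5%. SDs and SEs include the spread between libraries. No replicates were near-copies of each other (chi-square per gene between them 16.7 to 44.2). Alternatives used DESeq2 1.42.0, limma 3.58.1 on log2(FPKM + 0.1) and log2(FPKM + 0.5) for a mean FPKM of at least 1, other scalings and filters, a replicate block, a covariate for Y-linked RNA above 1 CPM, and left-out libraries. On simulated counts of 14653 genes the edgeR test called 36% of genes changed 1.5-fold and 56% of those changed 2-fold. The changed genes were drawn at random from all genes tested, and 14 unchanged genes were also called. Positions are from GENCODE M21 (GRCm38, the mm10 coordinates), where all 53 genes overlapped the table's locus, and promoters are from RefSeq. Members, lists and tests were chosen with earlier results of these data known. Library values are given, by rule, for the 3 members with the smallest p and the 1 with the largest p of each role, and for all members of roles with up to 5 genes. For other lists the 3 genes with the smallest p in each direction are named, and Dnmt1, Rrm2b, Uhrf1, the T cell markers with values and the ranked FPKM levels were named after their values were seen.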

Additional observations from a re-analysis of the deposited data

Results flagged for a closer look

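Cdt1 and Gins2, genes of licensing and of the helicase that lie at a locus left out of all tests, have fragments in the transgenic libraries while all wild-type libraries list them at 0. Cdt1 had 2791, 2815 and 2839 fragments in transgenic replicates 1, 2 and 3, and Gins2 had 2751, 2834 and 2829. All transcripts of both genes carry the status of a failed estimate, so the wild-type zeros are not measured levels and no difference between groups is given.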

How the results depend on the processing

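The median log2 fold change of the 53 genes moved by less than the spread between replicates under each of the 15 alternatives, and all 53 stayed below 0 in each. Leaving out 1 library moved it between -0.344 (wild-type replicate 1 left out) and -0.246 (wild-type replicate 2 left out). Of the 53 genes edgeR called 0 in the main test and 11 with no filter on low counts (0.485% of all genes lower). It called 19 with the covariate for Y-linked RNA (1.4%) and 17 without the libraries that carry it (1.32%). The edgeR count ran from 0 to 30 when 1 library was left out, the 30 being without wild-type replicate 1 (2.32%). DESeq2, a separate method that tested 9511 genes, called 28 (3.47%). For the other replication and nucleotide genes edgeR called 0 in the main test, 1 with no filter, 7 with the covariate and 8 without those libraries. With 1 library left out it called 0 to 19 of them, the 19 again without wild-type replicate 1, and DESeq2 called 15. The cause was not tested. Between libraries of the same replicate number the correlations of deviations from the group mean were 0.18, 0.138 and 0.00165 for numbers 1, 2 and 3. Libraries of different numbers were not compared, so these values cannot decide whether the numbers pair the samples. With the replicate block edgeR called 2 of the 53 genes and 14 genes in all. Median-of-ratios scaling, a mean FPKM of at least 5 and limma on FPKM each called 0 of the 53. With 3 libraries per group, the test called 36% of genes changed 1.5-fold in simulated counts. Those genes were drawn at random from all genes tested, so this share is not one for the 53 genes. The largest difference among the 53 genes was 1.48-fold.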
